A study of Rattus norvegicus with 35 samples.

Results

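The baseline of this rat liver study was described from the arrays themselves: which genes gave the highest signal in livers that received vehicle, and which genes differed most, or moved together, among arrays of the same group. The members were 5 vehicle arrays for the signal ranks and 23 arrays (vehicle, 0.05, 0.55 and 5.50 mg/kg) for the spread within groups, of 35 arrays in all. The 12 arrays at 55 and 550 mg/kg chose no gene here and served as arrays in which a pattern could be looked at again. All rats were male Sprague Dawley, 7 weeks of age when the study began and fed NTP-2000 diet. They received corn oil at 5 ml/kg by mouth on 5 days, alone (vehicle) or with TBB, a brominated benzoate flame retardant, and the left liver lobe was taken 1 day after the last dose. There were 5 vehicle arrays and 6 at each dose. No dose was compared with vehicle, and every spread below is around the mean of an array's own group. The labels do not say that each array is a separate animal, so the spread and the p-values measure only differences between these samples, which may be technical.

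Each array reported 31042 probe sets, short sets of probes against the 3' end of a transcript, and 14217 genes had at least 1 probe set naming that gene alone. Values are log2 signals, so a difference of 1 is a doubling of signal. The lowest correlation between any pair of the 23 arrays across probe sets was 0.988, and no 2 of them were identical. The 3' minus 5' signal of beta-actin, which grows when RNA is degraded, ran from 1.07 to 1.60 on the log2 scale over the 23 arrays with a median of 1.23 (rounded from 1.225), and 5.50 mg/kg replicate 1 held the highest value. Markers of hepatocytes were near the top of the array, and most markers of other organs near background. All 5 skeletal muscle markers, 9 of 11 pancreatic acinar markers, 4 of 5 neutrophil markers, 3 of 4 fat markers and 2 of 4 kidney markers had a vehicle mean below 4.47, the 40th percentile of all probe sets. The exceptions reached 10.15 for Cela1, an elastase on the pancreatic list, and 7.84 for Cfd, complement factor D on the fat list. They reached 5.93 for S100a9 on the neutrophil list and 4.66 for Aqp2, a water channel on the kidney list. In contrast, all 9 measured Kupffer cell markers and all 10 stellate cell markers lay above it, as did 7 of 8 endothelial markers. Below it were 3 of 6 cholangiocyte markers, 1 of 8 lymphocyte markers and none of 5 erythroid markers. The list medians were 9.37 for Kupffer, 7.40 for stellate and 8.13 for endothelial markers, against 4.36 for cholangiocyte and 4.23 for kidney markers. Signal of Kupffer, stellate and endothelial markers was therefore present in the bulk RNA. In such RNA, fewer cells of a type and less RNA per cell cannot be told apart.

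The liver makes most of the proteins of the blood, and hepatocytes give much of their RNA to albumin, apolipoproteins, fibrinogen, protease inhibitors and complement. The same cells run programmes that change over hours: a circadian clock in which Bmal1 drives its own repressors and output genes such as Dbp, sterol and fat synthesis under the SREBP factors, and the response to fasting. Resident macrophages called Kupffer cells, stellate cells and endothelial cells share the tissue and answer to interferon and to injury.

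Alb, which encodes albumin, had the highest signal in all 5 vehicle arrays, at 14.63, 14.63, 14.64, 14.65 and 14.62. Its SD over the 5 arrays was 0.013. The next was Apoc3, an apolipoprotein of triglyceride-rich particles, at 14.12, 14.17, 14.11, 14.13 and 14.15, a mean of 0.49 lower than Alb (SD of the difference 0.033, n = 5). Gc, the vitamin D binding protein, averaged 14.10 ± 0.012 (SD, n = 5), Ttr, the thyroxine and retinol carrier transthyretin, 14.09 ± 0.015, and Serpina1, the antitrypsin of plasma, 14.08 ± 0.022. These genes stood apart from the rest: Serpina1 exceeded COX2, a mitochondrial subunit of cytochrome oxidase, in all 5 arrays by a mean of 0.092. Signal ranks order probe sets and not transcript numbers, since probes bind with different strength.

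The other genes of the highest 25 fell into a few functions. The 3 fibrinogen chains were Fgg at 13.98 ± 0.029, Fga at 13.88 ± 0.042 and Fgb at 13.85 ± 0.044 (SD, n = 5 each). Lipid and retinol carriers were Apoe at 13.98 ± 0.020, Apoh at 13.92 ± 0.020, Rbp4 at 13.90 ± 0.017, Apoc1 at 13.73 ± 0.029 and Fabp1, the fatty acid binding protein of the hepatocyte cytosol, at 13.88 ± 0.015. Acute phase proteins and protease inhibitors included Hp, Ambp, Ahsg, C3, Itih3, Serpina3l and Serpina3c, between 13.77 for Itih3 and 13.95 for Hp. Of the 25 genes, 17 were on the list of plasma proteins, which had 47 measured members. The other 8 were COX2, Rup2, Fabp1, Serpina3l, Serpina3c, Mgst1, a microsomal glutathione transferase, Car3, a carbonic anhydrase, and Cyp3a2, a male-biased cytochrome P450. The marker Cyp2e1, a pericentral P450, ranked 30 with 13.58, 13.50, 13.45, 13.52 and 13.61, and Apoa1, the main apolipoprotein of high-density particles, ranked 38 with 13.42, 13.32, 13.60, 13.36 and 13.45. All markers given for hepatocytes therefore lay at the upper end of the distribution.

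**Figure D1:**
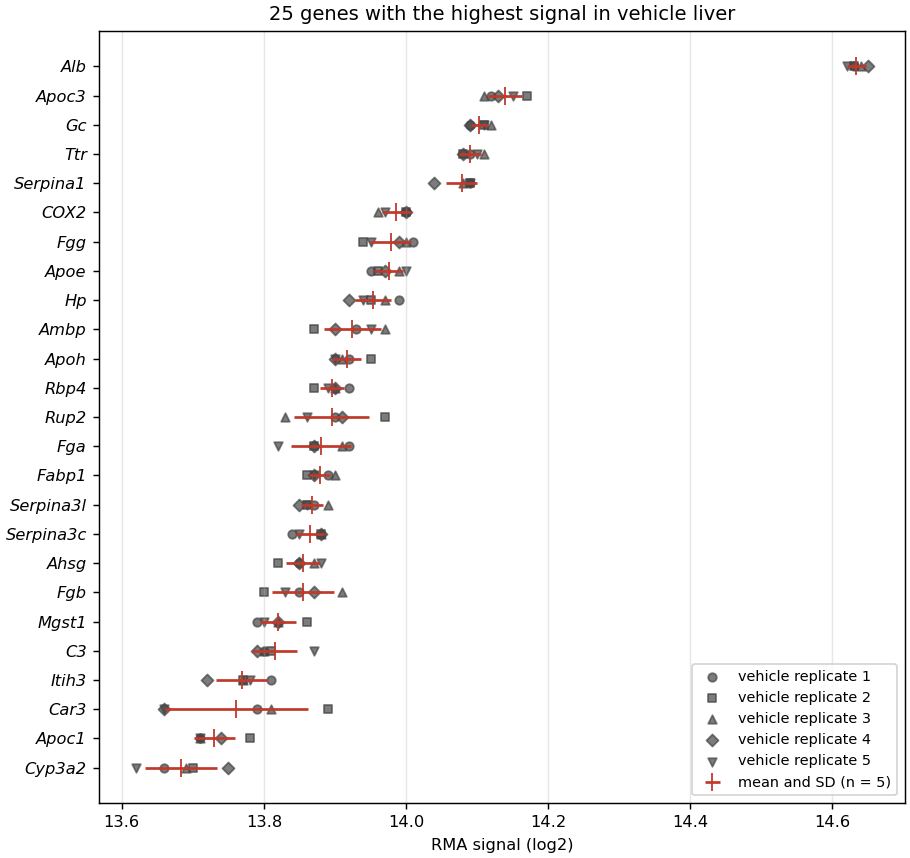
RMA signal (log2) of the 25 genes with the highest vehicle mean. Each grey symbol is 1 vehicle array and the red bar the mean and SD (n = 5). Alb stands alone at 14.63, and below it the ranges of all neighbours overlap down to Cyp3a2 at 13.68, except those of Serpina1 and COX2.

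Membership of the highest 25 was steadier than the order within it. In all 5 vehicle arrays 24 of the 25 genes were among the 25 highest, and the exception, Cyp3a2, ranged from rank 22 to rank 26. The gene at rank 25 averaged 13.68 and the gene at rank 26, B2m, the light chain of MHC class I, 13.61. Of the 24 neighbouring pairs in the order, 4 kept it in all 5 arrays and 7 differed by more than the SD of their difference, so most neighbours were not separated. Car3 moved most among the 25, with an SD of 0.10 and ranks from 12 to 25. Its values were 13.79, 13.89, 13.81, 13.66 and 13.66. Other probe sets of the same genes did not always repeat the rank. Of 10 such probe sets for 7 of the 25 genes, 7 lay above the 90th percentile, but 1 for Apoe averaged 3.13 and the lowest, for Fgb, stood at percentile 11.1. Alb's further probe set averaged 14.41.

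The spread within groups was small for most genes and large for a few. The within-group SD, pooled over the 4 groups with 19 degrees of freedom, had a median of 0.139 over 14217 genes. This corresponds to a 1.10-fold difference for 1 SD. Its 5th and 95th percentiles were 0.075 and 0.30. In all, 178 genes had an SD of at least 0.5 and 17 an SD of at least 1. With 19 degrees of freedom the 95% interval of an SD runs from 0.76 to 1.46 times its value. In 10 bins of genes by signal the median SD went from 0.155 at its highest, at low to middle signal, to 0.095 among the brightest genes, and the 95th percentile from 0.195 in the dimmest bin to 0.341 in the bin where it was highest.

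**Figure D2:**
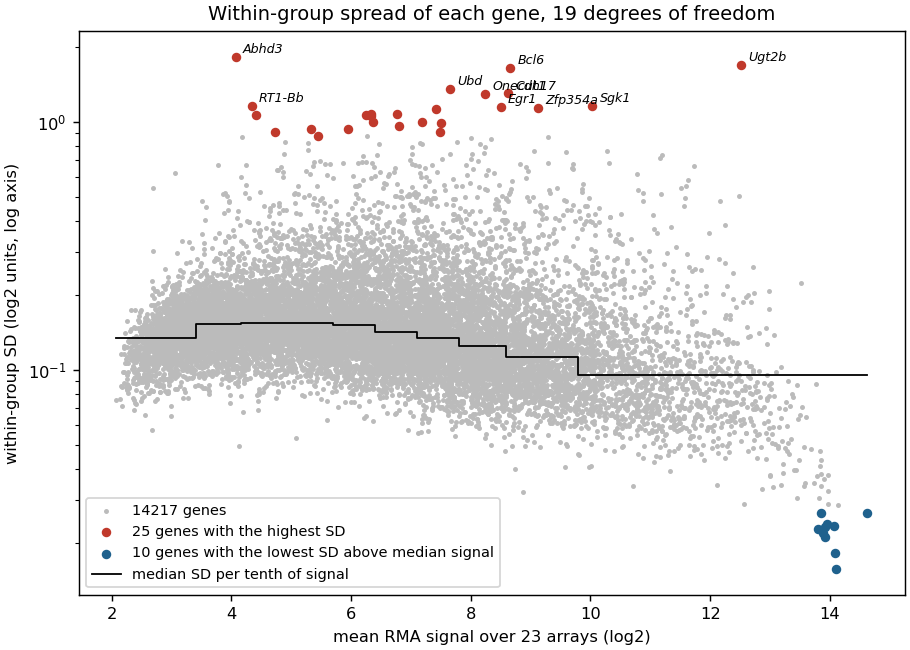
Within-group SD of each gene (log2 units, log axis) against its mean RMA signal over 23 arrays (log2). Red points are the 25 genes with the highest SD, labelled for the first 10, blue points the 10 with the lowest SD above median signal, and the black line the median SD of genes in 10 bins of equal size by signal. Abhd3 at 1.83 and Bcl6 at 1.66 stand far above the line.

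The steadiest genes above median signal were Mgst1 and genes of secreted proteins. Gc had the lowest SD, 0.016, followed by Ttr at 0.018, Apoh at 0.021, Rbp4 at 0.022 and Mgst1 at 0.023. Ambp, Serpina1, Hp, Alb and Ahsg completed the 10, with SD up to 0.027. In the 12 arrays at 55 and 550 mg/kg their SD stayed within the lowest 0.134 percentile of all genes. All 10 also stand near the top of the array, where quantile normalisation assigns every array nearly the same highest values. Their share of this ceiling in the low SD was not tested. The 47 plasma protein genes had a median SD of 0.05, with A2m, the protease inhibitor alpha-2-macroglobulin, the most variable at 0.45. Among genes often used as references, 9 were measured and their median SD was 0.10, with Tfrc, the transferrin receptor, highest at 0.22 and B2m the brightest.

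The most variable genes were led by Abhd3, a phospholipid hydrolase, with a within-group SD of 1.83 (95% interval 1.39 to 2.67). Its signal was 3.31, 3.18, 3.50, 3.43 and 3.33 in vehicle, near background in every array. Bcl6, a transcriptional repressor, had an SD of 1.66 (1.26 to 2.42) and vehicle values of 7.47, 6.35, 7.40, 8.65 and 10.34. Its lowest, median and highest values were 6.31, 8.80 and 10.33 at 0.05 mg/kg, 6.72, 9.33 and 10.40 at 0.55 mg/kg, and 6.30, 9.72 and 10.70 at 5.50 mg/kg. Each group held both low and high values of Bcl6, while the spread of Abhd3 came from few arrays.

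Several regulators were among the 25. Onecut1, a hepatocyte factor also called HNF6, had an SD of 1.30 and vehicle values of 9.55, 9.83, 9.41, 9.12 and 6.67. Sgk1, a kinase induced by glucocorticoids, had an SD of 1.16 with 11.41, 11.45, 11.56, 9.65 and 8.60. Vehicle replicate 5 was the lowest of the 5 for both. Egr1, an immediate early transcription factor, had an SD of 1.15 and Zfp354a, a zinc finger gene, 1.14, with vehicle values of 7.61, 8.25, 8.42, 8.20 and 10.31 for Zfp354a. Nfe2 (1.08), Socs2 (1.00), the growth hormone pathway inhibitor, and Gadd45g (0.99), a stress response gene, followed. Fgf21, the fasting hormone of the liver, had an SD of 0.91 and Noct, a clock-controlled phosphatase, 0.94.

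Others of the 25 act outside that set. Siglec5, a lectin of leukocytes, had an SD of 1.07 around a mean of 4.41, and Mx2, an interferon-induced GTPase, 1.06. Mx2 was 8.07, 5.90, 3.32, 6.48 and 6.08 in vehicle, the lowest and the highest of all 23 arrays. Lum, the matrix proteoglycan lumican, had 1.06 and Efemp1, a fibulin, 0.91. Hdc, which makes histamine, had 0.96 and was 9.17 in vehicle replicate 5 against 5.21 to 6.97 in the other vehicle arrays. Of the 25 genes, 3 averaged below the 40th percentile of all probe sets, so their low values lie near background. The last of the 25, Rec114, a meiotic recombination gene, had 0.88 and the next gene, Rgs16, also 0.88.

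The gene lists differed in their spread. Of 17 measured interferon response genes, 15 were among the 5% of genes with the highest SD, with a median SD of 0.44 and Mx2 the most variable. The same held for 7 of 9 Kupffer cell markers (median 0.37), led by Cd5l, a macrophage protein, at 0.48. It also held for 5 of 8 MHC class II genes (median 0.44). The spread of Cd5l was not alike in all groups. Its SD was 0.18 in vehicle and 0.30 at 0.05 mg/kg, against 0.68 at 0.55 mg/kg and 0.54 at 5.50 mg/kg. Its lowest value of the 23 was in 0.55 mg/kg replicate 2. Among the highest 5% were 10 of 17 clock genes (median 0.35) and 9 of 16 fatty acid synthesis genes (0.33). So were 8 of 15 fasting genes (0.34), 8 of 15 immediate early genes (0.34) and 8 of 19 cholesterol synthesis genes (0.28). Lists of basic liver function had lower medians than those lists. The median SD was 0.06 over 16 acute phase genes, 0.08 over 7 male-biased genes and 0.12 over 12 bile acid genes. It was 0.13 over 19 glutathione transferases and 0.16 over 16 drug-metabolising P450 genes. Within these lists of basic liver function, Cyp7a1 reached 0.55, Cyp3a9 0.54 and Obp3, an odorant binding protein, 0.50. Zonation genes had medians of 0.12 (9 pericentral) and 0.16 (11 periportal, rounded from 0.155), the latter led by Sds, serine dehydratase, at 0.69. The P450 and periportal medians lay at percentiles 68.4 and 62.7 of all genes, above the median gene. Median signal stood at percentile 99.7 for the acute phase list, 99.4 for the male-biased list and 99.2 for the P450 list. The part of the ceiling of quantile normalisation in these medians was not tested. None of 8 endothelial markers was among the highest 5%, and 3 of 10 stellate markers were, led by Dcn at 0.63.

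The 12 arrays at 55 and 550 mg/kg held much the same variable genes. All 25 were within the 250 genes of highest SD there, which are 1.76% of genes, and 16 were within the highest 25. Across 14217 genes, which are not independent, the rank correlation of the 2 SDs was 0.69. The median SD of the 25 genes was 1.07 in the 23 arrays and 0.96 in the 12, where the median gene had 0.126. Sgk1 was among those that moved down, with an SD of 0.59 and rank 107, and Hdc had 0.53 and rank 149.

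Some genes split the 23 arrays into a low and a high set with an empty range of at least 1 between them and at least 3 arrays on each side. There were 8 such genes. Abhd3 had the widest gap, 3.98, from 3.57 to 7.55, with 4 arrays above it and 19 below. The high arrays were 0.05 mg/kg replicate 1 at 7.97, 0.55 mg/kg replicate 4 at 7.83, 5.50 mg/kg replicate 1 at 7.55 and 5.50 mg/kg replicate 3 at 8.03. Among the 12 other arrays, 55 mg/kg replicate 2 at 7.64 and 550 mg/kg replicate 1 at 8.14 were high. The other 10 lay between 3.05 and 3.68, of which 55 mg/kg replicate 3 at 3.64 and 550 mg/kg replicate 2 at 3.68 were just inside the gap. A weaker probe set of Abhd3 split the same arrays, with 3.70 to 3.87 in the high and 3.02 to 3.55 in the low ones.

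Ubd, which encodes the ubiquitin-like protein FAT10, had a gap of 2.53 with 18 arrays above it and 5 below, and all 5 vehicle arrays were high at 8.06, 8.16, 8.28, 8.39 and 8.16. Ephx2, the soluble epoxide hydrolase, had a gap of 2.39 and 3 high arrays with a median of 9.17 against 5.87 in the other 20. In the 12 other arrays 2 were above the gap of Ephx2, 10 below and none inside it. The gaps of S100g and Clca2 were also empty there, while those of Abhd3, RT1-Bb, Cdh17 and Resp18 held 2 of the 12 arrays each and that of Ubd 1. RT1-Bb, an MHC class II beta chain, was high in 5 of 23 arrays and in 2 of 5 vehicle arrays, which were 3.60, 5.87, 3.66, 6.48 and 4.01. The other probe set of RT1-Bb did not separate those arrays. Cdh17, a cadherin of liver and intestine, was low in 3 of 23 arrays, among them vehicle replicate 5 at 5.62 against 8.99 to 10.02 in the other 4. S100g, a calcium binding protein, was high in 4 arrays, Resp18, an endocrine secretory protein, in 18 and Clca2, of the chloride channel accessory family, in 16. The sides differed from gene to gene.

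**Figure D3:**
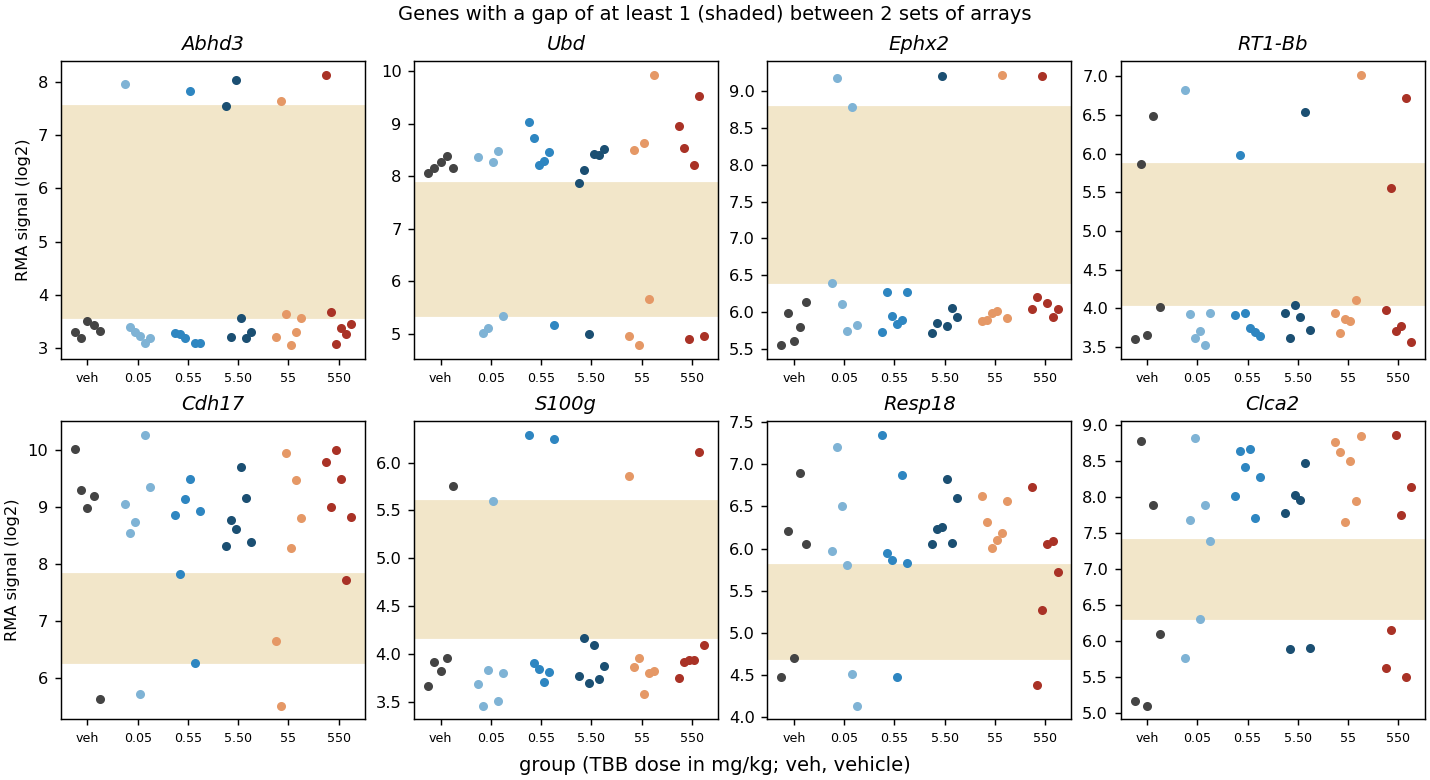
RMA signal (log2) of the 8 genes with an empty range of at least 1 in the 23 vehicle, 0.05, 0.55 and 5.50 mg/kg arrays, by group, with the 12 arrays at 55 and 550 mg/kg beside them. Each point is 1 array and the shaded band is the empty range; Abhd3 lies below 3.57 or above 7.55 in all 23 arrays.

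Ugt2b, a glucuronosyltransferase, had an SD of 1.70 that rested on 1 array. It was 13.02, 12.85, 12.74, 12.98 and 12.95 in vehicle and 4.66 in 0.05 mg/kg replicate 5. Without that array its SD was 0.14. In the 12 other arrays 55 mg/kg replicate 3 at 4.59 and 550 mg/kg replicate 6 at 5.84 were also far below the rest. Ugt2b is 1 of a family of near-identical genes, whose probe sets can share signal.

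Genes that moved together were sought among the 300 genes with the highest SD above the 40th percentile of signal. Residuals from group means were correlated over the 23 arrays and joined where the mean correlation was at least 0.6, which gave 18 groups of 4 or more with 192 genes. The mean correlation over all 44850 pairs was 0.042. Since the groups were built on these correlations, their values are a description. Each group was then examined in the 12 arrays at 55 and 550 mg/kg, where every gene was fitted with limma on the group's lead gene, the one with the highest mean correlation to the rest.

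**Figure D4:**
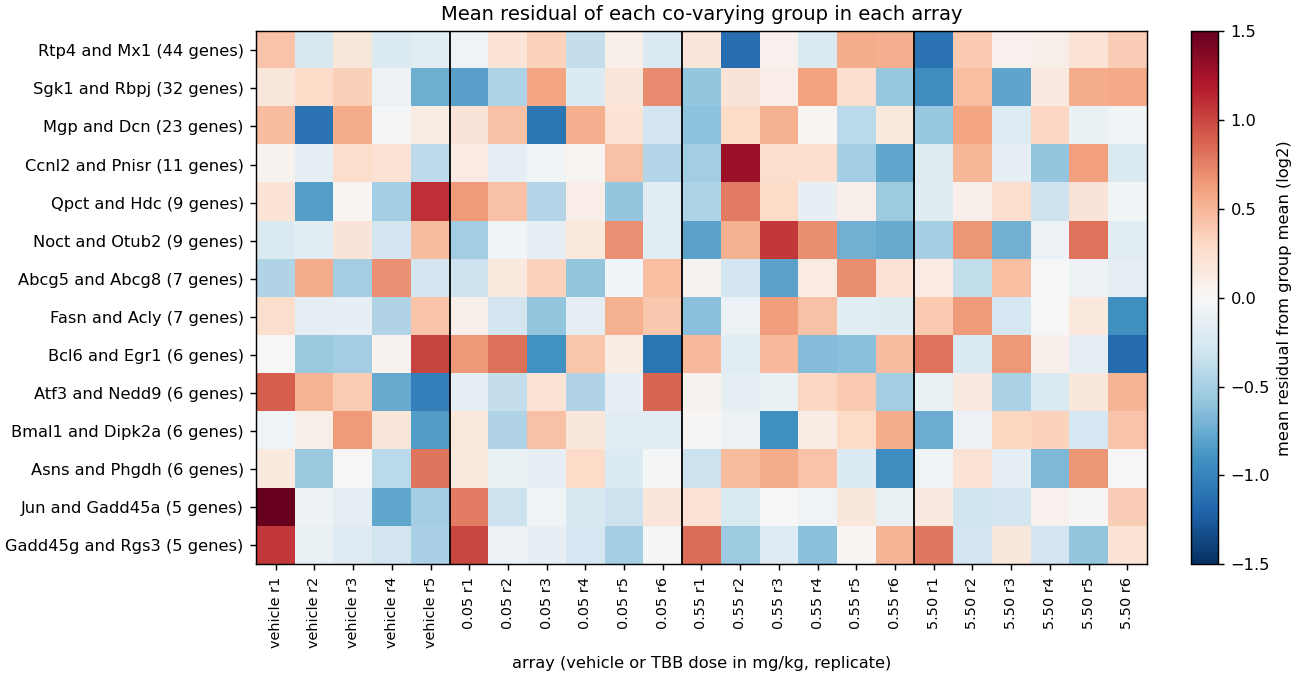
Mean residual (log2, colour) of each co-varying group of 5 or more genes in each of the 23 arrays; rows are named by 2 of their genes. The Rtp4 and Mx1 row is lowest in 0.55 mg/kg replicate 2 at -1.14, and the Gadd45g and Rgs3 row is high in replicate 1 of each group.

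The largest group held 44 genes, among them Rtp4, Mx1, Gbp2, Irf9, Ddx60 and Epsti1, which are induced by interferon, and Ms4a6a, Fcgr3a and Aif1, which are expressed by macrophages. It shared 8 of the 17 measured interferon response genes (18.2% of the group), 4 of 8 MHC class II genes (9.09%) and 3 of 9 Kupffer cell markers (6.82%). The mean correlation within it was 0.79. Its mean residual was -1.14 in 0.55 mg/kg replicate 2 and -1.11 in 5.50 mg/kg replicate 1, and no other array was below -0.36. Without those arrays the mean correlation was 0.56, so part of it rested on them. The beta-actin 3' minus 5' value was 1.20 in the former and 1.60, the highest, in the latter, and its part in the result was not tested.

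Rtp4, a receptor transport protein, shows the pattern. It was 10.03, 9.33, 9.15, 8.96 and 8.98 in vehicle. Its lowest, median and highest values were 8.62, 9.15 and 9.84 at 0.05 mg/kg, 6.76, 9.08 and 9.64 at 0.55 mg/kg, and 7.31, 9.27 and 9.61 at 5.50 mg/kg. Mx1, an antiviral GTPase, was 6.52, 5.60, 5.75, 5.11 and 5.85 in vehicle with lowest values of 3.62 at 0.55 mg/kg and 4.07 at 5.50 mg/kg. Vehicle replicate 1 was the highest of the 23 arrays for both genes, and 0.55 mg/kg replicate 2 the lowest.

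The group was seen again at 55 and 550 mg/kg. With LOC100910973, a long non-coding RNA that leads the group, 33 of its 43 other members passed adjusted p under 0.05 with a positive slope (limma), where 94 of 14216 genes did (0.661%). Without 1 array in turn the count was 30 to 36. Ms4a6a rose by 1.63 ± 0.09 per unit of the lead gene (slope ± SE, adjusted p = 8.8e-07), Rtp4 by 1.74 ± 0.15 (adjusted p = 6.5e-05) and Mx1 by 1.65 ± 0.15 (adjusted p = 6.5e-05). Cxcl10, an interferon-induced chemokine and the member with the smallest slope, did not pass (0.19 ± 0.34, adjusted p = 0.96). The mean correlation in the 12 arrays was 0.75.

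The promoters of this group shared letters. The interferon response element was searched as GAAA, any 2 bases and GAAA, on both strands in the 250 bases before the start of transcription, in RefSeq promoters of GRCr8; this motif was chosen after the group had been seen. Of the 37 members with a promoter in the table, 18 held it (48.6%), against 3.29% of 27457 promoters. The windows below are 60 bases of promoters that hold it, 5′ to 3′ in the direction of the gene, with the match in capitals, and lead with group members described above.

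LOC100910973: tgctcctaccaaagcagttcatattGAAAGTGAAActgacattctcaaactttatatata
Gbp2: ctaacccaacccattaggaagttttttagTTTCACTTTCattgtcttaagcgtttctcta
Ddx60: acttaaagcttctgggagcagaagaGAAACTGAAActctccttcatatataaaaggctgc
Fcgr3a: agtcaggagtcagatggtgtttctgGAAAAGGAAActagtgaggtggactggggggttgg
Epsti1: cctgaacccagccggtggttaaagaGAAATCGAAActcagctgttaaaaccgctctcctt
Irf7: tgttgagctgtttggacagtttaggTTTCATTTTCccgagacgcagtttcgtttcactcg
Ifit3: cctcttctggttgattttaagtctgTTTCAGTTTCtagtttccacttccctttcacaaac
Oas1a: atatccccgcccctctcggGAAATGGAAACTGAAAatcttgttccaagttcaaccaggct

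They lie in the GRCr8 build, LOC100910973 at chr1:217133263-217133322 on the minus strand, Gbp2 at chr2:234005667-234005726 on the plus strand, Ddx60 at chr16:33208844-33208903 on the minus strand, Fcgr3a at chr13:85782506-85782565 on the plus strand, Epsti1 at chr15:59693341-59693400 on the plus strand, Irf7 at chr1:205800058-205800117 on the minus strand, Ifit3 at chr1:241527257-241527316 on the plus strand, Oas1a at chr12:41330406-41330465 on the plus strand. The match begins 31 bases before the start in Gbp2 and 105 in Fcgr3a, a receptor for immunoglobulin, and Oas1a, an antiviral synthetase, holds a pair of overlapping matches. A match describes the letters and not a bound site.

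The next group had 32 genes and no list that held more than 2 of them. It included Rbpj, a transcription factor, with Sgk1, Onecut1, Trib3, a stress-induced pseudokinase, Tat, which degrades tyrosine, and Insig1 and Stard4 of the cholesterol list. The mean correlation was 0.73, 0.67 without the 2 most extreme arrays and 0.45 in the 12 other arrays. Trib3 was 8.58, 8.62, 8.76, 7.86 and 7.77 in vehicle, and Tat was 10.02, 9.73, 10.42, 9.28 and 9.25, with vehicle replicates 4 and 5 low for both. At 55 and 550 mg/kg no gene of 14216 passed on Rbpj (0%, limma), and 24 of the 31 other members had a positive slope at unadjusted p under 0.05, where 485 of 14216 genes did. The mean residual was lowest, at -0.93, in 5.50 mg/kg replicate 1, the array with the highest beta-actin value.

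The amino acid response element, TGATGNAA on both strands and likewise chosen after seeing the group, was held by 5 of its 26 promoters (19.2%), against 3.27% of all promoters. The 5 matches are printed as before.

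Trib3: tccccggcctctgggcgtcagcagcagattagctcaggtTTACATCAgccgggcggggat
Slc1a4: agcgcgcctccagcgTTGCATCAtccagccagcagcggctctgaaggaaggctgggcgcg
Tat: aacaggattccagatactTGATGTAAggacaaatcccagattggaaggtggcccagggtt
Inhbe: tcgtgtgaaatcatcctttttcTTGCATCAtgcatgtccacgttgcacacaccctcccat
Angptl8: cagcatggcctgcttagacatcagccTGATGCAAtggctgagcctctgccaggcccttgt

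Their GRCr8 positions are Trib3 at chr3:161275534-161275593 on the minus strand, Slc1a4 at chr14:98761753-98761812 on the minus strand, Tat at chr19:54856354-54856413 on the plus strand, Inhbe at chr7:65064710-65064769 on the minus strand, Angptl8 at chr8:28652411-28652470 on the plus strand. Slc1a4 carries neutral amino acids, Inhbe encodes an activin subunit and Angptl8 a feeding-regulated hormone. The matches differ in place, from 21 bases before the start in Trib3 to 235 in Slc1a4.

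A group of 23 genes was led by Mgp, the matrix Gla protein. It included Smoc2, Dcn, the proteoglycan decorin, Col1a2, a collagen chain, Efemp1, Fabp4, Lpl, lipoprotein lipase, and Msln, a mesothelial antigen. It shared Dcn and Col1a2 with the 10 stellate cell markers. Mgp was 9.14, 7.43, 9.31, 8.39 and 8.67 in vehicle and Dcn 7.19, 5.64, 7.24, 6.00 and 6.88, so vehicle replicate 2 was the lowest in both. The mean residual of the group was -1.11 there and -1.10 in 0.05 mg/kg replicate 3. The mean correlation was 0.76, 0.62 without these arrays and 0.66 in the 12 others. In the latter, 7 of 22 members rose with Mgp (0.0914% of genes, limma), Smoc2 by 0.97 ± 0.09 per unit (adjusted p = 0.0011). Without 550 mg/kg replicate 2 the count was 1, without 55 mg/kg replicate 3 or replicate 4 it was 3, and without 550 mg/kg replicate 4 it was 4.

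Ccnl2, a cyclin of splicing factors, Pnisr and Rsrp1, serine and arginine rich proteins, the RNA Thumpd3-as1, Dancr and Fam193b were among 11 genes with a mean correlation of 0.79. That correlation was 0.68 without 0.55 mg/kg replicates 2 and 6, and 0.71 in the 12 other arrays. Ccnl2 was 8.90, 8.81, 9.24, 9.56 and 8.53 in vehicle, and 10.46 in 0.55 mg/kg replicate 2, the highest of 23 arrays. This array also had the highest mean residual of the group, 1.29, and the lowest of the group led by LOC100910973. At 55 and 550 mg/kg, 8 of 10 members rose with Thumpd3-as1 (0.253% of genes, limma), Ccnl2 by 1.10 ± 0.07 (adjusted p = 1e-05) and Pnisr by 0.77 ± 0.08 (adjusted p = 0.0001). The count was 4 without 55 mg/kg replicate 4 or replicate 6 and 5 without 550 mg/kg replicate 5.

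A group of 6 held Asns, which makes asparagine, Phgdh and Psat1 of serine synthesis, Mthfd2 of mitochondrial folate metabolism, the cystine carrier Slc7a11 and the stress gene Nupr1. Their mean correlation was 0.80 in the 23 arrays and 0.85 in the 12. Asns was 8.30, 7.38, 8.27, 7.68 and 9.01 in vehicle and Phgdh 9.16, 8.51, 9.20, 8.79 and 9.93, both lowest in replicate 2 and highest in replicate 5. Among the 12 arrays, 3 of 5 members rose with Asns (0.0492% of genes, limma): Psat1 by 1.16 ± 0.07 (adjusted p = 5.1e-06), Phgdh by 0.92 ± 0.07 (adjusted p = 2.6e-05) and Mthfd2 by 0.64 ± 0.09 (adjusted p = 0.036). Nupr1 (0.58 ± 0.10, adjusted p = 0.13) and Slc7a11 (0.44 ± 0.12, adjusted p = 0.58) did not pass.

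Abcg5 and Fasn each led a group of 7. Abcg5 and Abcg8 encode the partner subunits of the sterol exporter of liver and gut and grouped with Cyp3a9, Cyp26b1, Pcp4, Mme and Acsm2 (mean correlation 0.70 in the 23 arrays, 0.32 in the 12). In vehicle Abcg5 was 7.74, 9.64, 7.97, 9.22 and 8.27 and Abcg8 6.00, 7.74, 5.96, 7.25 and 6.69, with replicates 2 and 4 the highest of both. In the 12 arrays Abcg8 rose by 0.99 ± 0.08 per unit of Abcg5 (limma, adjusted p = 0.00023) and Pcp4 by 0.66 ± 0.09 (adjusted p = 0.031). These were the only 2 genes called (0.0141%), and the count of members was 1 without any single array of 7 (55 mg/kg replicates 2, 4 and 6, 550 mg/kg replicates 2, 3, 4 and 5). The other group held Fasn, fatty acid synthase, Acly, ATP citrate lyase, Elovl6, Pnpla3, Thrsp, Fabp5 and Ppara, 5 of them on the list of fatty acid synthesis. Acly rose by 1.17 ± 0.13 per unit of Fasn in the 12 arrays (adjusted p = 0.013), the 1 of 6 members called (0.0211% of genes), and none passed without 55 mg/kg replicate 1 or 2 or 550 mg/kg replicate 1 or 4.

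The other groups were smaller or were not called again. Hdc, Qpct, Igfbp2, the metallothionein Mt2A and A2m were in a group of 9, with a mean residual of 1.09 in vehicle replicate 5 and -0.82 in vehicle replicate 2. Zfp354a and Noct were in a group of 9 with Otub2, a deubiquitinase. Bcl6 and Egr1 grouped with Cyp7a1, which starts the conversion of cholesterol to bile acids, Nr1d1, a clock repressor, Bcl2l11 and Nceh1. Atf3, Chac1, Bhlhe40 and Nedd9 were together with Hhex and Rtp3, and Jun, Dusp1, Cish, Gdf15 and Gadd45a in another group, which vehicle replicate 1 led with 1.51 and whose mean correlation was 0.36 without vehicle replicate 1 and 0.05 mg/kg replicate 1. Bmal1 grouped with Dipk2a, Rprm, Slc6a6, Nim1k and C2h4orf46. For the lead genes of these 6 groups no gene of 14216 passed in the 12 arrays (0%, limma), and 2 of 8, 8 of 8, 2 of 5, 3 of 5, 4 of 4 and 4 of 5 members had a positive slope at unadjusted p under 0.05, in that order. Over all 14216 genes, 533, 718, 494, 308, 474 and 478 did so.

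In the 4-gene groups, Osgin1 rose with Pdk4, the pyruvate dehydrogenase kinase, by 0.76 ± 0.11 (limma, adjusted p = 0.022, 0.0774% of genes called), 1 of 3 members, and the count was 0 without 55 mg/kg replicate 2, 4 or 5 or 550 mg/kg replicate 6 and 2 without 550 mg/kg replicate 2. No member was called for Nfil3, Cdkn1a, Ppm1k and Fzd4 (0% of genes), for Rgs16, Arrdc3, Rhpn2 and Rab30 (0.0211%) or for Stac3, C6, Elapor1 and Dab1 (0%), with 2, 1 and 3 of 3 members at unadjusted p under 0.05 with a positive slope, as were 377, 515 and 303 of 14216 genes.

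Gadd45g, Rgs3, Foxa2, Dusp6 and Exph5 formed a group of 5 with a mean correlation of 0.79 in the 23 arrays and 0.78 in the 12. Gadd45g was 9.91, 7.33, 7.60, 7.03 and 7.60 in vehicle. Replicate 1 was also its highest array at 0.05 mg/kg, 9.23 against 6.78 to 7.15, at 0.55 mg/kg, 9.20 against 6.38 to 7.48, and at 5.50 mg/kg, 9.08 against 6.85 to 8.16. With the replicate number as a block its SD was 0.29 in place of 0.99. In the 12 other arrays replicate 3 was the highest, at 9.62 at 55 mg/kg and 9.34 at 550 mg/kg, where replicate 1 was 7.09 and 6.96. The labels do not say what a replicate number marks. No gene passed on Rgs3, a regulator of G protein signalling, in the 12 arrays (0%, limma), with 4 of 4 members and 548 of 14216 genes at unadjusted p under 0.05 with a positive slope, 2 members called without 550 mg/kg replicate 2 and 1 without 550 mg/kg replicate 5.

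To ask which programmes vary among livers of one group, every probe set was fitted with limma on the level of a chosen gene over the 23 arrays, with 1 mean per group. A slope is the change in log2 signal per log2 unit of that gene. Dbp, a clock output factor, ranged from 4.97 to 8.30 and was 7.00, 6.62, 5.14, 5.86 and 8.30 in vehicle. Its lowest, median and highest values were 5.70, 6.57 and 7.60 at 0.05 mg/kg, 4.97, 5.98 and 8.30 at 0.55 mg/kg, and 5.07, 6.17 and 7.09 at 5.50 mg/kg. The vehicle arrays alone covered almost the whole range.

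Clock genes moved with Dbp in opposite directions. Of the 16 other measured genes of the clock list, 10 passed, 6 rising with Dbp and 4 falling, where 0.281% of genes passed in either direction. The median slope of the list was 0.13, that of all genes -0.0046. Tef, a factor of the same family, rose by 0.28 ± 0.03 per unit (slope ± SE, limma adjusted p = 1.5e-05), Usp2, a clock-controlled protease, by 0.61 ± 0.07 (adjusted p = 2.7e-05), the repressor Nr1d2 by 0.31 ± 0.04 (adjusted p = 0.00028) and Per1 by 0.22 ± 0.03 (adjusted p = 0.0017). Per3 and Nr1d1 also rose. Bmal1, the activator of the clock, fell by 0.50 ± 0.04 (adjusted p = 1.8e-07), its partner Npas2 by 0.32 ± 0.04 (adjusted p = 0.00057), and Cry1 and Nfil3 fell as well. Bmal1 was 6.76, 6.67, 7.47, 7.11 and 5.50 in vehicle, lowest where Dbp was highest and highest where Dbp was lowest. Clock itself (-0.14 ± 0.03, adjusted p = 0.1) and Per2 (0.07 ± 0.03, adjusted p = 0.31) did not pass.

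Outside the list, Hsd17b2, a steroid dehydrogenase, rose with Dbp by 0.44 ± 0.05 (limma, adjusted p = 1.8e-05), and Clpx, a mitochondrial chaperone, Dipk2a and Rprm fell, by 0.21 ± 0.02, 0.36 ± 0.04 and 0.42 ± 0.06. In all, 64 of 31041 probe sets passed, 29 rising and 35 falling. The count was 36 without 0.55 mg/kg replicate 3 and 40 without vehicle replicate 5, and 10 without both arrays farthest from the median. Per1 (adjusted p = 0.22), Npas2 (0.11), Dipk2a (0.10) and Rprm (0.055) then lost the call. In the 12 arrays 5 probe sets passed. Hsd17b2 kept its call (0.49 ± 0.06, limma adjusted p = 0.014), while Bmal1 had a slope of -0.40 ± 0.07 (adjusted p = 0.15). Tef, Usp2, Nr1d2, Per1 and Npas2 kept their sign and did not pass either (adjusted p = 0.36, 0.3, 0.06, 0.64 and 0.3). Nor did Clpx, Dipk2a and Rprm pass there (adjusted p = 0.55, 0.51 and 0.45).

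**Figure D5:**
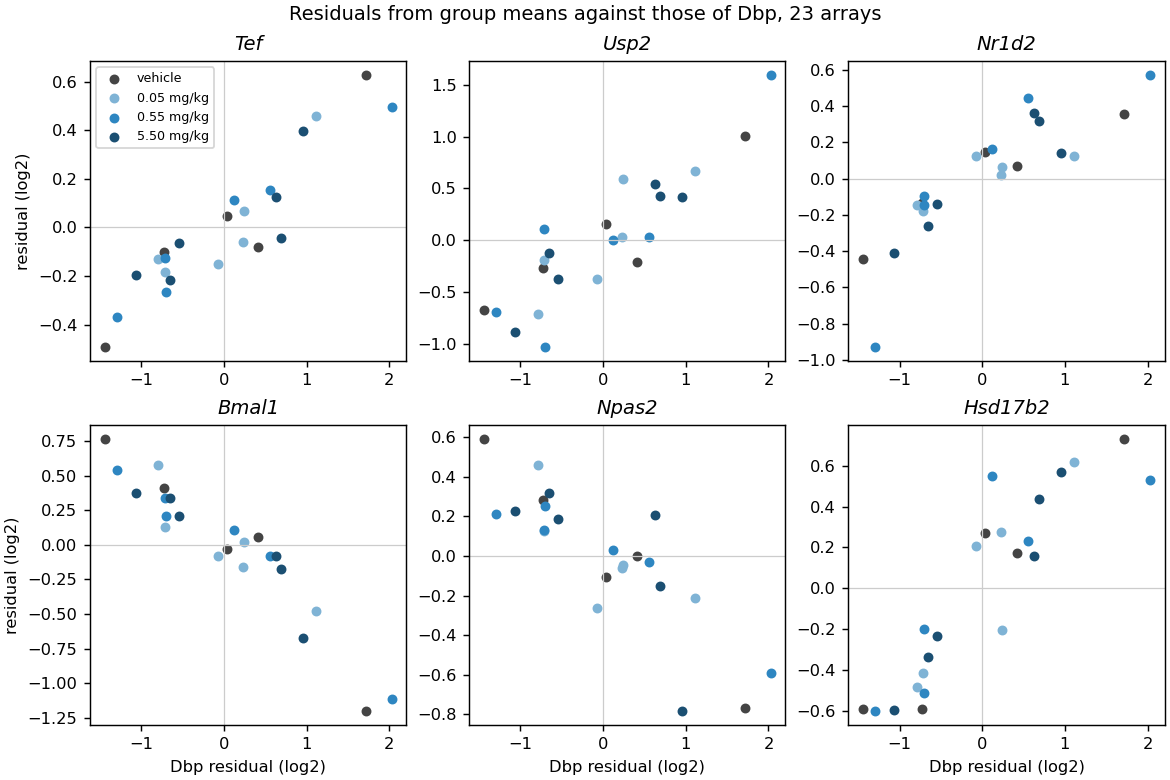
Residuals from group means (log2) of 6 genes against those of Dbp in the 23 arrays, coloured by group. Tef, Usp2, Nr1d2 and Hsd17b2 rise with Dbp, with slopes from 0.28 to 0.61, and Bmal1 and Npas2 fall by 0.50 and 0.32.

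Promoters of the genes called with Dbp were searched for motifs through which the clock loop is known to run. The clock list as a whole was not counted. The 3 matches below were picked as examples and have the match in capitals. The E-box CACGTG, bound by Bmal1 and its partners, is shown in Tef. The D-box TTATGNAA, bound by Dbp and Tef, is shown in Per2, and the ROR element TAGGTCA in Bmal1. Of all 27457 promoters, 5.79% hold the E-box, 3.21% the D-box and 2.26% the ROR element, which was added after seeing the group.

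Tef: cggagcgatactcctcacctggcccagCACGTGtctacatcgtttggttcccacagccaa
Per2: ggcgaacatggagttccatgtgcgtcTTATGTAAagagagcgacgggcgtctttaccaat
Bmal1: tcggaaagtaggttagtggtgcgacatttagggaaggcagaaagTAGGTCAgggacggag

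Their GRCr8 positions are Tef at chr7:115206602-115206661 on the plus strand, Per2 at chr9:99497152-99497211 on the minus strand, Bmal1 at chr1:176766268-176766327 on the plus strand. The Bmal1 match begins 16 bases before the start. Of the 32 genes with a promoter that moved with Dbp, Dbp included, 2 (6.25%) held the ROR element, Bmal1 and Por. The E-box was in 1 (3.12%) and the D-box in none (0%), against 5.79% and 3.21% of all promoters. Per2 was not among the 32 and is shown because it carries the D-box.

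Sterol synthesis was followed through Sqle, squalene epoxidase, since Hmgcs1 had no probe set of its own. Sqle was 10.17, 10, 9.46, 9.37 and 9.90 in vehicle. Its lowest, median and highest values were 9.52, 9.80 and 10.44 at 0.05 mg/kg, 8.90, 9.72 and 10.31 at 0.55 mg/kg, and 9.02, 9.77 and 9.99 at 5.50 mg/kg. Of the 18 other measured genes of cholesterol synthesis, 12 rose with Sqle and none fell, where 0.127% of genes rose, and the median slope was 0.51 against -0.011 over all genes. Msmo1, a sterol demethylase, rose by 0.68 ± 0.05 (limma adjusted p = 7.6e-08), Hsd17b7 by 0.85 ± 0.07 (adjusted p = 7.6e-08), Mvd of the mevalonate steps by 0.80 ± 0.06 (adjusted p = 8.8e-08) and Fdft1, squalene synthase, by 0.53 ± 0.06 (adjusted p = 2.6e-05) and, with another probe set, by 0.58 ± 0.06. Lss, Idi1, Fdps, Cyp51, Sc5d, Mvk, Pmvk and Acat2 rose too. Insig1, Stard4, Nsdhl, Ebp, Dhcr7 and Tm7sf2 had positive slopes that did not pass.

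Sqle carried 3 genes of fatty acid synthesis with it, Fasn (1.00 ± 0.10, limma adjusted p = 8.1e-06), Elovl6 and Thrsp. Ppm1k, a mitochondrial phosphatase, fell by 1.02 ± 0.16 (limma adjusted p = 0.0021). Cd3g, a T cell marker, fell by 0.41 ± 0.08 (adjusted p = 0.028). The Cd3g call was lost in 6 of 23 fits without 1 array (adjusted p up to 0.14). In the 12 arrays neither passed: Ppm1k had -0.48 ± 0.23 (adjusted p = 0.88) and Cd3g -0.055 ± 0.12 (adjusted p = 0.98). Of 31041 probe sets 37 passed, 34 rising and 3 falling, and 25 to 42 when any 1 array was left out. At 55 and 550 mg/kg Msmo1 (0.58 ± 0.08, adjusted p = 0.032), Hsd17b7 (0.63 ± 0.08, adjusted p = 0.021) and the latter probe set of Fdft1 (0.55 ± 0.07, adjusted p = 0.019) passed again, 3 of 5 calls there. The SREBP element, TCACNCCAC on both strands, was in none of the 15 promoters of Sqle and the genes called with it, against 0.976% of all promoters. The CCAAT box, read as CCAAT, was in 11 of 15 (73.3%), against 34.3%. That share was not particular to these genes. Among the other sets counted it ran from 23.1% (3 of 13, the Mgp group) to 100% (5 of 5, the Bcl6 and Egr1 group). In the Fasn group it was 75% (3 of 4).

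Glucose-driven fat synthesis was followed through Pklr, the pyruvate kinase of the liver. Pklr was 9.30, 9.29, 9.33, 9.20 and 9.78 in vehicle, with replicate 5 apart from the rest. Of the 15 other fatty acid synthesis genes measured, 6 rose with it, where 0.169% of genes rose, 0.0352% fell and 0.204% passed in either direction, and the median slope was 0.91 against -0.016. Acly rose by 1.47 ± 0.16 (limma adjusted p = 0.00017), Acaca, acetyl-CoA carboxylase, by 0.96 ± 0.13 (adjusted p = 0.00093) and Zfp354a by 2.98 ± 0.45 (adjusted p = 0.005). Tkfc, which phosphorylates the products of fructose, rose by 0.73 ± 0.09 (adjusted p = 0.00093). The Zfp354a call was lost with the replicate number as a block. Without the 2 arrays farthest from the median the calls of Zfp354a and Tkfc were lost. In the 12 arrays Acly, Acaca and Tkfc did not pass (limma adjusted p = 0.19, 0.5 and 0.88). Nor did Zfp354a, with a slope of 0.54 ± 1.21. Of 31040 probe sets 53 passed, but 14 without 0.55 mg/kg replicate 3 or 5.50 mg/kg replicate 6, 22 without 5.50 mg/kg replicate 2, 35 without 0.55 mg/kg replicate 5, 80 without 5.50 mg/kg replicate 4, and 2 without the 2 arrays farthest from the median.

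Igfbp1, a hepatic protein that rises when insulin is low, gave 51 calls of 31041, of which 10 rose and 41 fell, and 0 when beta-actin and GAPDH 3' minus 5' values were added to the fit. Irs2, the insulin receptor substrate, rose by 0.65 ± 0.11 (limma adjusted p = 0.017), the 1 of 14 other fasting genes called, where 0.0563% of genes rose and 0.218% passed in either direction. The count was 1 without 5.50 mg/kg replicate 1 or 5, 2 without 0.05 mg/kg replicate 1, 3 without 0.05 mg/kg replicate 2 and 7 without 0.55 mg/kg replicate 6. It was 15, 16 and 17 without 0.05 mg/kg replicate 6, 0.05 mg/kg replicate 3 and 5.50 mg/kg replicate 3, and 25 and 26 without vehicle replicates 4 and 3. It was 28 without 0.55 mg/kg replicate 4 or 5.50 mg/kg replicate 4, 105 without 0.05 mg/kg replicate 4 and 170 without 0.55 mg/kg replicate 1. Calls on Igfbp1 therefore depended on single arrays. Mki67, a proliferation marker, was 3.43, 3.59, 3.81, 4.25 and 4.21 in vehicle, near background. No probe set passed on it (limma, 0%), with 1041 of 31041 at unadjusted p under 0.05. Of the 28 other cell cycle genes 26 had a positive slope, with a list median of 0.30 against 0.0064 over all genes. Fos, an immediate early factor, was 4.29, 4.57, 4.30, 4.32 and 4.34 in vehicle. On it 5 probe sets passed and none of the 14 other immediate early genes did (0.00703% of genes passed), with 3779 of 31040 probe sets at unadjusted p under 0.05. The count for Fos was 9 without 5.50 mg/kg replicate 1 and 0 without 5.50 mg/kg replicate 2. It was 1 to 3 without any of vehicle replicates 1, 2 and 4, 0.05 mg/kg replicates 1 to 4, 0.55 mg/kg replicates 1, 3, 4, 5 and 6, and 5.50 mg/kg replicate 3.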

How the data were processed

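Liver RNA of 35 rat samples was hybridised to Affymetrix 3' arrays, per the labels' protocols, which required an RNA integrity number of at least 7. The authors summarised each probe set by RMA in the affy package (named in the submitters' processing notes) and deposited the result as log2 signal, used here unchanged. For both, the version is not given in the sources used here. Because of its quantile step, RMA makes the distribution of all arrays alike: a shift common to most genes is lost, and the brightest probe sets have little room to vary. Precision is limited by the number of arrays.

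Of 31099 probe sets, 57 controls were left out. A platform annotation gave 20826 a single symbol and 436 several, and 9780 were not listed with a gene; 20758 matched RefSeq's genes. Where a gene had several probe sets, the one with the highest mean over the 23 arrays was used. SD and residual correlations used 1 mean per group. Slopes on an anchor gene were fitted with limma (3.58.1, R 4.3.3) over all probe sets, two-sided, with Benjamini-Hochberg adjustment and adjusted p under 0.05. The anchors were Dbp, Sqle, Pklr, Igfbp1, Mki67 and Fos. The fit was tested on simulated data, where 100 changed probe sets per size were recovered in 63% at a slope of 1 SD and 100% at 2 SD. The simulated noise was normal and independent between probe sets. The test therefore does not cover the co-variation and the single arrays far from the rest described above. Python 3.11.15 (pandas 2.3.3, numpy 2.4.6, scipy 1.17.1, matplotlib 3.10.9) and the R package data.table (version 1.17.8) were used.

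The members and gene lists were chosen with earlier results of these data known. Named genes were the 25 highest by vehicle mean and by SD, the 10 lowest by SD, genes with a gap, members of co-varying groups (of large groups, the 10 with the highest mean correlation), the anchors with their 5 smallest p in each direction, and the highest and most variable member of each list. Other genes were named after their values were seen. Replicate numbers did not pair the arrays: the residuals of same-numbered arrays had a median correlation of -0.0057. Promoters are RefSeq, GRCr8, and no coordinates were given for probe sets. Alternatives are in the closing section.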

Additional observations from a re-analysis of the deposited data

Results flagged for a closer look

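In groups of 5 or 6 arrays, 26 of 220 gene and group pairs (11.8%) had 1 array whose gap to the nearest other was above Dixon's 95% value, where chance gives about 1 in 20 for genes not chosen by their spread. Many of these genes were chosen for a high spread or a gap in the same arrays, so the share cannot be read against that rate. Genes that split into low and high arrays gave several: Abhd3 at 7.97 in 0.05 mg/kg replicate 1 and 7.83 in 0.55 mg/kg replicate 4, RT1-Bb at 6.82 in 0.05 mg/kg replicate 1, 5.98 in 0.55 mg/kg replicate 2 and 6.54 in 5.50 mg/kg replicate 5, Ubd at 5.16 in 0.55 mg/kg replicate 6 and 4.99 in 5.50 mg/kg replicate 3, Ephx2 at 9.20 in 5.50 mg/kg replicate 3 and Cdh17 at 5.62 in vehicle replicate 5. Ugt2b was 4.66 in 0.05 mg/kg replicate 5, against 12.65 to 13.02 in the other arrays of that group.

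Other variable genes with an array apart were Gadd45g at 9.91 in vehicle replicate 1 and 9.23 in 0.05 mg/kg replicate 1, Onecut1 at 6.67 in vehicle replicate 5, Noct at 5.62 in vehicle replicate 3, Fgf21 at 8.87 in 0.55 mg/kg replicate 5 and Siglec5 at 2.44 in 0.05 mg/kg replicate 4. Among the genes used in the slopes, Pklr was 9.78 in vehicle replicate 5, Sqle 9.02 in 5.50 mg/kg replicate 6 and Fos 4.57 in vehicle replicate 2.

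Abundant genes stood apart by small amounts: Alb at 14.64 in 0.55 mg/kg replicate 5 and 14.56 in 5.50 mg/kg replicate 2, Apoh at 13.97 in 5.50 mg/kg replicate 6, C3 at 13.87 in vehicle replicate 5, Fgg at 13.91 in 5.50 mg/kg replicate 1, Hp at 13.90 in 0.55 mg/kg replicate 6 and Serpina3c at 13.72 in 0.05 mg/kg replicate 5. All other arrays at 0.55 mg/kg had the same Alb value, 14.6252, so any difference at all would be flagged there. The highest values of the 23 arrays, all from Alb probe sets, took only 11 distinct values. The causes were not tested.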

How the results depend on the processing

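The highest 25 by vehicle signal were the same 25 without any 1 vehicle array, and 22 to 25 of the 25 most variable genes remained without any 1 array. With the median absolute deviation 16 of the 25 remained. The number of genes with a gap was 7 to 9 without 1 array and 5 at a gap of at least 1.5, and the number of co-varying genes 187 to 214. The SD of Ugt2b was 0.14 without 0.05 mg/kg replicate 5. Probe sets called on Dbp numbered 64, 35 with array weights, 21 with the replicate block, 10 without the 2 arrays farthest from the median, 5 in the 12 arrays, and 36 to 77 without 1 array. On Sqle they numbered 37, 21 with 1 probe set per gene, 20 without the 2 farthest arrays, 5 in the 12 arrays, and 25 to 42 without 1 array. On Pklr they numbered 53, 11 without variance moderation, 5 with the replicate block, 2 without the 2 farthest arrays, 1 in the 12 arrays, and 14 to 80 without 1 array. On Igfbp1 they numbered 51, 20 with array medians subtracted, 12 with array weights, 4 without the 2 farthest arrays, 1 without variance moderation or with the replicate block, 0 with the RNA quality covariates or in the 12 arrays, and 1 to 170 without 1 array. On Fos they numbered 5, 8 with the RNA quality covariates, 2 with trend and robust settings, 1 with medians subtracted, with 1 probe set per gene or in the 12 arrays, 0 with cyclic loess, the replicate block or without the 2 farthest arrays, and 0 to 9 without 1 array. On Mki67 the count was 0 throughout. In the 12 arrays 5 slopes had the opposite sign: Efna1 on Pklr 0.050, Aqp1 on Pklr 0.028, Rhou on Igfbp1 0.037, Wfdc6a on Fos -0.28 and Coro2a on Fos -0.063. The causes were not tested. Over all genes, replicate numbers did not pair the arrays; the SD of Gadd45g, which was highest in replicate 1 of each of the 4 groups, was 0.29 with the replicate block. Signal near background limits Fos, Mki67 and the low side of the genes with a gap, and the number of arrays limits every slope.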
